A study of Mus musculus with 2 samples.

Results

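The regulatory DNA of 10 genes that encode ETS transcription factors of lymphocytes (Ets1, Ets2, Elf1, Elf2, Elf4, Fli1, Gabpa, Elk3, Elk4 and Etv6) was examined in a STARR-seq experiment. A listed region was given to a gene when the protein-coding start nearest to its centre, within 100 kb, belonged to that gene. This gave 24 of the 14973 regions listed on chromosomes 1 to 19, X and Y. STARR-seq places genomic fragments within a transcribed reporter on an episome, so that an enhancer is read out through the abundance of its own RNA relative to the input DNA. The single group was activated T helper 1 (Th1) primary cells of strain C57BL/6NJ, transiently transfected, and 2 output libraries, labelled as separate biological replicates of the same donor, were sequenced. Treatment with Interleukin-12 p70 (10 ng/mL), Interleukin-2 (10 ng/mL) and anti-Interleukin-4 (2 ug/mL) lasted 4 days, and that with anti-CD28 (1 ug/mL) and anti-CD3e (0.25 ug/mL) 3 days. The labels name all 5 agents for both libraries but give the doses of Interleukin-2 and Interleukin-12 p70 for replicate 1 alone and those of anti-Interleukin-4 and anti-CD28 for replicate 2 alone, and that of anti-CD3e for both. Sex and age are not given by the labels, and no library of untreated cells was analysed here.

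The authors deposited 1 table made from both libraries, so the spread over replicates cannot be given for any value, and the depth is unknown. Neither the scale nor the direction of the signed effect of a region is stated, and each effect comes with a p-value and its adjusted p. The 14994 regions in it, which include 21 on other scaffolds, made up 13.1% of the tested regions inferred from the 2 p-value columns. For 82.2% of the listed regions these columns gave the inferred number of tested regions within 0.5. The table holds no expression values, so the labelled cell type could not be checked against its markers. A gene with no listed region may have had no tested region or none past the listing threshold, an adjusted p of 0.01.

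ETS factors share a DNA-binding domain that recognises a GGAA core, and the bases around that core separate the subfamilies. In T cells they act beside RUNX, AP-1 and T-box factors at enhancers of cytokine and receptor genes. Some are activators and others repressors, and several are phosphorylated downstream of the T cell receptor through MAP kinases. Ets1 is a partner of T-bet in Th1 cells, Gabpa encodes the DNA-binding subunit of GABP, and Elk3 and Elk4 encode ternary complex factors that bind with SRF.

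The sequences below carry the main contrast, between GC-rich promoter regions of opposite sign, and the region of highest effect. The windows of this paragraph are given on the strand of the gene, from the GRCm38 genome (mm10 coordinates), and leave out exons of protein-coding genes. In them capitals mark GGGCGG, the GC box of SP and KLF factors, on either strand. For Elf2, windows are shown from the 2 regions of lowest effect among the members. The first lies in an intron near its start (chr3:51339938-51340237, minus strand) and the other before its start (chr3:51341213-51341512, minus strand).
Elf2 intron: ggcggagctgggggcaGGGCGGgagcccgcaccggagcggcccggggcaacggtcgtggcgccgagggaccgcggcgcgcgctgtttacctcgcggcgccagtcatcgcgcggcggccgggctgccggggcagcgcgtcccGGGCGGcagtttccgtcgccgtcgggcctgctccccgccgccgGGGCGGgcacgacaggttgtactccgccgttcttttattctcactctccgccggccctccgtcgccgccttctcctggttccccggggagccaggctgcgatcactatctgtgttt
Elf2 upstream: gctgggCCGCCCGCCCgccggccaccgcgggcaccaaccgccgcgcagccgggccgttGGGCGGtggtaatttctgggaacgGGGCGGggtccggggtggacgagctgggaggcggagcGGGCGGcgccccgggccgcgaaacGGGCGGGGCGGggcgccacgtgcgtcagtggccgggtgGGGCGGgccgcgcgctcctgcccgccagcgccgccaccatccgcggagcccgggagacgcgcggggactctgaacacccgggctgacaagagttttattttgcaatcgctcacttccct
For Ets1 and Etv6, whose promoter regions were positive, the windows are chr9:32695722-32696021 and chr6:134035388-134035687 on the plus strand.
Ets1 promoter: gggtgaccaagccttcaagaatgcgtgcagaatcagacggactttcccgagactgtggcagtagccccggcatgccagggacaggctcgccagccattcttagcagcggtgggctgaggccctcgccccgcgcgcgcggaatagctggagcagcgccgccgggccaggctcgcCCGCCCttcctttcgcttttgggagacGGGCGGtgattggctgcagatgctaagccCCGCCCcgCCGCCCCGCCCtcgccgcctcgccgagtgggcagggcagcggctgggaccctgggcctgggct
Etv6 promoter: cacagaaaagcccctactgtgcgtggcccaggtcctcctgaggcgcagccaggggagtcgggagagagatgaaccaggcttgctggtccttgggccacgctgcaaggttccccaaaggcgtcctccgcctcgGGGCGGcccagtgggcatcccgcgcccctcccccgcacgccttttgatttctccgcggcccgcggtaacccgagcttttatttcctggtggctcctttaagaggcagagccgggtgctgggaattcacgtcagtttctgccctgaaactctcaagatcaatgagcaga
The Elf4 window (chrX:48410114-48410413, minus strand) comes from the region of highest effect, which lies just past the end of the gene.
Elf4 3' flank: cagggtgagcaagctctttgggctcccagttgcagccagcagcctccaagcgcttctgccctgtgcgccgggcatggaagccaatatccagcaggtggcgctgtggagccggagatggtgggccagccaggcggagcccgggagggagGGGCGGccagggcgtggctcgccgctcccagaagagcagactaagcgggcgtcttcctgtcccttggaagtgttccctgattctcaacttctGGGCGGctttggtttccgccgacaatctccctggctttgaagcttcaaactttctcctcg
These windows had GC contents of 74.7% and 76.3% for Elf2, 70.3% for Ets1, 62.3% for Etv6 and 63.3% for Elf4. GGGCGG was found 3 and 8 times in the Elf2 windows, 5 times in the Ets1 window, once in the Etv6 window and 2 times in the Elf4 window. The GC box was thus present in windows of either sign. As whole regions, the promoter regions of Ets1 and Etv6 had 66.8% and 65.4% GC, and the upstream Elf2 region had 69.2%. Of 1702 listed promoter regions of 65 to under 70% GC, 41.2% were negative.

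Of the 24 regions, the authors' deposited table gave 17 a positive effect, against 80.7% of all listed regions, and 7 a negative one, against 19.3%. The positive share of the members was 70.8% (95% Wilson interval 50.8 to 85.1%), an interval that includes the share of all listed regions. The median effect was 0.71 in the authors' deposited table, against 0.73 over all listed regions. Positive members had a median of 0.83 and negative members one of -0.88 in the authors' deposited table, against 0.80 and -1.07 over all listed regions. Effects ran from -1.73 at Elf2 to 1.25 at Elf4 in the authors' deposited table, well inside the range of the whole table, -5.93 to 7.92. An adjusted p under 0.001 was given to 16 of the 24, against 60.6% of all listed regions, and an absolute effect of at least 1 to 6, against 33.9%. Regions were 100 to 1350 bp wide, with a median of 550 bp. The 300 bp around each centre matched 1 place in the genome, and 1 region, in an intron of Elk3, was mostly soft-masked repeat. The members were thus single-copy sites of moderate effect.

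Regions were spread unevenly over the genes. Ets1, Fli1 and Elf2 had 4 each, Elk3 had 3, Ets2, Elf1, Elf4 and Etv6 had 2 each, Gabpa had 1 and Elk4 none. At least 1 region was found for 9 of the 10 genes, against 43.0% of all 21840 protein-coding genes, and at least 2 for 8 of them, against 31.7% of the 9394 genes with a region. Intervals around genes differ in length, and this was not taken into account. All regions were positive for Fli1, Ets2, Elf4, Gabpa and Etv6, all were negative for Elf2, and Ets1, Elf1 and Elk3 had both signs.

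**Figure D1:**
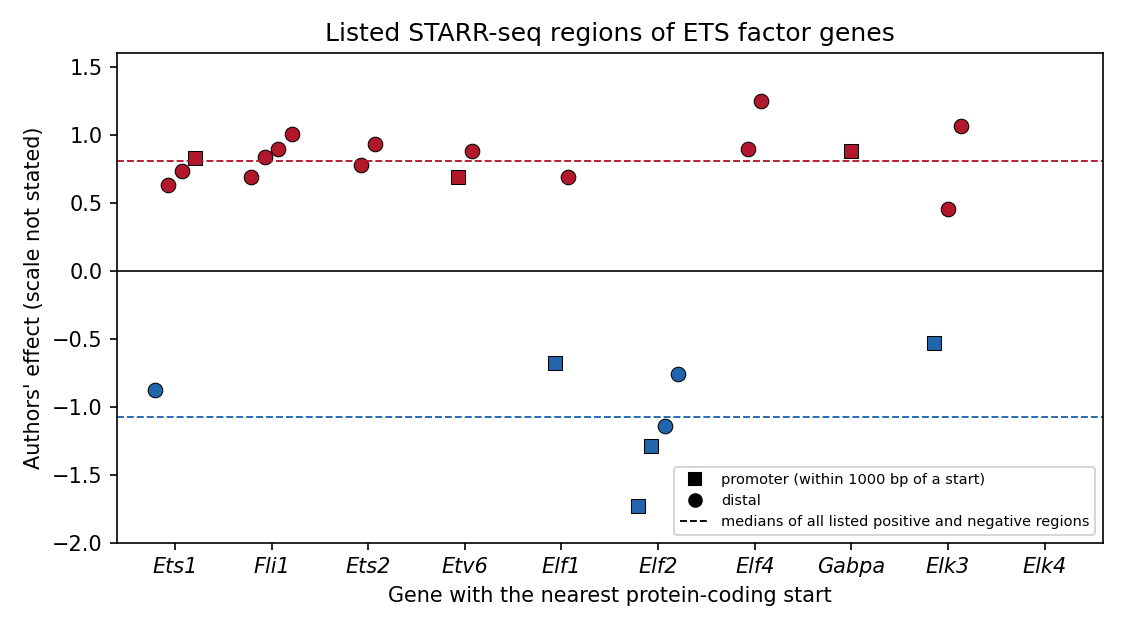
The authors' effect of each of the 24 listed regions (vertical axis, scale not stated) is plotted by gene, with squares for promoter regions, circles for distal regions, red for positive and blue for negative effects. Dashed lines are the medians of all listed positive regions (0.80) and negative regions (-1.07), and the 4 Elf2 regions are all below 0 while the 4 Fli1 regions are all above it.

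Ets1 and Fli1 were examined first. These genes are neighbours on chromosome 9, transcribed away from each other, with protein-coding starts 154 kb apart. Over 244 kb they had 8 listed regions, 7 of them positive, against 80.7% positive over all listed regions. No region given to another gene lay in that span, which follows from the rule unless another gene has a protein-coding start within it. Fli1 encodes a regulator of blood stem cells, megakaryocytes and lymphocytes. In the authors' deposited table its regions had effects of 1.00 in an intron (chr9:32515976-32516125, adjusted p = 7.18e-06), 0.89 at chr9:32562401-32562825, 0.83 at chr9:32590026-32590200 and 0.69 at chr9:32591726-32592300. The last 3 were intergenic, 21018, 48518 and 50418 bp before the protein-coding start, on the side of Ets1. The last pair were separated by 1525 bp. No region at the Fli1 start was listed. Among starts of any annotated transcript, the nearest to the intronic region was that of Gm38346, 5667 bp away. For the last pair it was that of Gm47680, 23339 and 21439 bp away.

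For Ets1, the authors' deposited table gave 0.83 to a promoter region (chr9:32695601-32696400, adjusted p = 0.000783), whose centre was 22 bp before a start. A region 35.3 kb before that start had an effect of 0.63 in the authors' deposited table (chr9:32660651-32660800). It lies in an intron of a longer Ets1 transcript that is annotated as a retained intron and begins 59.8 kb before the first protein-coding start. Another positive region, with 0.73 in the authors' deposited table, lay 13.5 kb after the start (chr9:32709526-32710275), in an intron of Ets1 and an exon of the non-coding gene Gm27240. The fourth was negative, at -0.88 in the authors' deposited table (chr9:32759576-32760125, adjusted p = 0.00197), and it began 1756 bp past the end of the gene. At 44.5% GC this distal region fell in the category of 40 to under 45%, in which 34.0% of 1104 listed distal regions were negative, near the edge to the next category, with 7.98% of 1867. From the intron of Fli1 to the body of Ets1 the 7 listed regions were thus positive, and the one past the end of Ets1 was negative. Of all listed regions 80.7% were positive, and the difference was not tested.

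**Figure D2:**
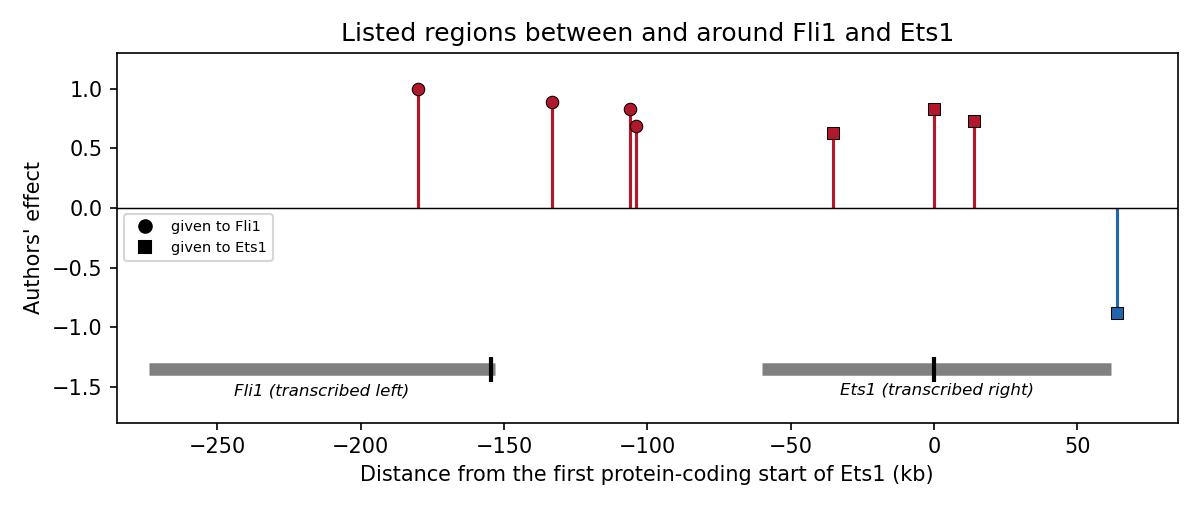
Stems give the authors' effect of the 8 listed regions against distance from the first protein-coding start of Ets1 in kb, with circles for regions given to Fli1, squares for those given to Ets1, grey bars for the gene bodies and black ticks for the protein-coding starts. The 7 positive regions lie between 0.63 and 1.00, and the negative one, at -0.88, lies past the end of Ets1.

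Ets2, the closest relative of Ets1 and a target of MAP kinase signalling, had 2 positive regions on chromosome 16. The authors' deposited table gave 0.93 in an intron 6.35 kb after the start (chr16:95708151-95708700, adjusted p = 0.00623) and 0.78 in intergenic sequence (chr16:95749276-95750625, adjusted p = 0.000477). The second began 28225 bp past the end of the gene and was the widest of all members, at 1350 bp. Neither lay at the promoter. For the second, the nearest start of any annotated transcript was that of CT030665.1, 4350 bp away.

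Etv6 encodes an ETS repressor of blood stem cells, known as a partner in leukaemia fusions. In the authors' deposited table its promoter region had an effect of 0.69 (chr6:134034926-134036150, centre 162 bp before the start, adjusted p = 0.000704). An intronic region 23950 bp after the start had 0.88 in the authors' deposited table (chr6:134059326-134059975, adjusted p = 5e-05). The gene body extends over 234 kb, and both regions lay in its first part or at its start. For the intronic region the nearest start of any annotated transcript was that of Gm43982, 13704 bp away.

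The ELF genes differed most in sign. Elf2, which encodes a widely expressed relative of Elf1, had 4 regions and all were negative. In the authors' deposited table the first, in an intron (chr3:51339826-51340350, centre 556 bp after a start), had an effect of -1.73 with adjusted p = 1.52e-07. The second, 350 bp away on the other side of the start (chr3:51340701-51342025), was listed at -1.29 in the authors' deposited table (adjusted p = 3.99e-06). Of all negative listed regions, 15.7% and 35.7% had effects of larger size than these. The GC contents were 72.6% and 69.2%. Of listed promoter regions of 70 to under 75% GC, 80.5% of 795 were negative, and of those of 65 to under 70% GC, 41.2% of 1702.

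The other pair of Elf2 regions lay in intergenic sequence 17.8 and 18.5 kb before the start, separated by 100 bp. They had effects of -1.14 (chr3:51358401-51358500, adjusted p = 1.27e-07) and -0.76 (chr3:51358601-51359775, adjusted p = 0.0033) in the authors' deposited table. Their GC contents were 45.0% and 54.2%. The nearest start of any annotated transcript was that of Gm37203, 11772 and 11034 bp away. At 45 to under 50% GC, 7.98% of 1867 listed distal regions were negative, and at 50 to under 55%, 2.16% of 2081. The narrower region lies at the edge of its category, and at 40 to under 45% GC 34.0% of 1104 listed distal regions were negative. Each pair lay less than 500 bp apart, so the 4 regions cover 2 places. Among the 387 genes with at least 4 regions, counted without merging, 4 had negative regions alone (1.03%), Elf2 included, and 206 had positive regions alone. With each pair joined, Elf2 would not be among these genes, so the share does not measure how rare 2 negative places are.

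Elf1, a regulator of lymphocyte genes, had 1 region of each sign. The negative one, -0.68 in the authors' deposited table (chr14:79515401-79515950, adjusted p = 0.00646), was centred 1 bp from a downstream start of the gene and overlapped a non-coding part of an Elf1 exon. Unlike the Elf2 promoter it was AT-rich, at 41.3% GC and a CpG ratio (observed over expected) of 0.299, and 23.7% of 118 listed promoter regions of 40 to under 45% GC were negative. The part before that start (chr14:79515401-79515673, plus strand) is shown with CCAAT, the NFY element, in capitals on either strand.
Elf1 downstream promoter: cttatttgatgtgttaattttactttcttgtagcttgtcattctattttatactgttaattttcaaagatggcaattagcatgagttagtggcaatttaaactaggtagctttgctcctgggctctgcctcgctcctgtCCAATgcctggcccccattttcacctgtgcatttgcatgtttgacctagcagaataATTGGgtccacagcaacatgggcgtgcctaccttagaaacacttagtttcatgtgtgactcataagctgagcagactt
The positive region of Elf1, 0.69 in the authors' deposited table (chr14:79526251-79526425, adjusted p = 0.00208), lay in an intron 10.7 kb after a downstream start and held none of the 15 consensus sequences searched. The first Elf1 start lay in a region that was not among the 24, because the start of the neighbouring gene Wbp4 was nearer, at 70 bp against 256 bp. The authors' deposited table gave that region (chr14:79480801-79482100, 71.5% GC) -1.49 with adjusted p = 5.85e-07. Listed regions at both the first and the downstream Elf1 start were therefore negative.

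Elf4, which restrains proliferation of naive CD8 T cells, had 2 positive regions, one past its 3' end and one in an intron, and none at its promoter. The higher, 1.25 in the authors' deposited table (chrX:48409926-48410600, adjusted p = 5.56e-08), began 446 bp past the end of the gene, and 16.3% of positive listed regions had larger effects. The other, 0.89 in the authors' deposited table (chrX:48424426-48425300, adjusted p = 2.81e-05), was intronic. For the higher region the nearest start of any annotated transcript was that of Bcorl1, 40995 bp away, against 43906 bp for Elf4.

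Gabpa, whose product with its GABPB partner drives mitochondrial and housekeeping promoters, had a single region over its start. In the authors' deposited table it was listed at 0.88 with adjusted p = 4.73e-05 (chr16:84834476-84835700, 64.9% GC). A start of Atp5j, which encodes a subunit of the ATP synthase, is annotated within 1 kb of this region, so the effect cannot be given to 1 of these genes. Of 2263 listed promoter regions of 60 to under 65% GC, 9.41% were negative, but the region lies at the upper edge of that category, and the next had 41.2% of 1702.

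Among the ternary complex factors, Elk3 had 3 regions on chromosome 10. The authors' deposited table gave 1.07 in an intron (chr10:93291676-93292125, adjusted p = 0.000291), 0.45 in another intron (chr10:93273751-93273950, adjusted p = 0.00807) and -0.53 at the promoter (chr10:93310901-93311075, adjusted p = 0.00156). The intronic value of 0.45 and the promoter value of -0.53 lay near the smallest effects listed, which were 0.37 and -0.43 in the authors' deposited table. The promoter region was negative at 59.4% GC. Of 1608 listed promoter regions of 55 to under 60% GC 3.30% were negative, and of those in the next category 9.41%. Elk4, a factor of thymocyte selection, had no region under the rule. The nearest listed region to its start was 24.5 kb away, belonged by the rule to Slc45a3 and had an effect of 0.84 in the authors' deposited table.

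**Figure D3:**
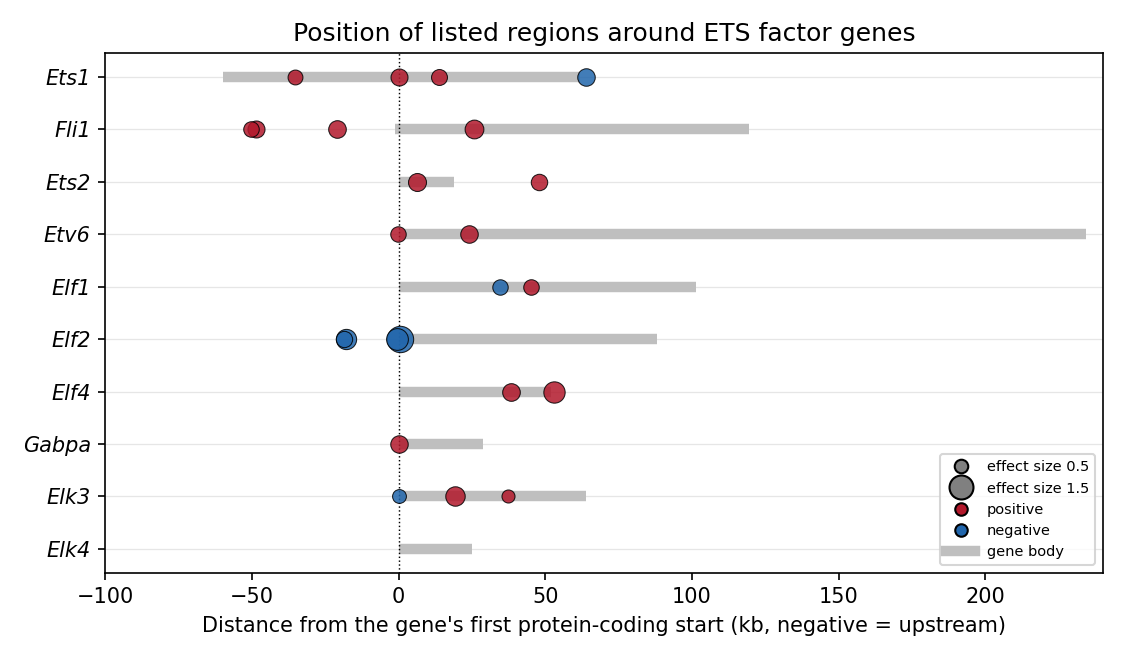
Each listed region is placed by its distance in kb from the first protein-coding start of its gene, negative values being upstream, with point size for the size of the effect, red for positive, blue for negative and grey bars for gene bodies. Fli1 regions lie on both sides of the start, Elf4 regions in the gene body and past its 3' end, and the Elf2 pairs at the start and 17.8 to 18.5 kb before it.

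Promoter and distal regions of the family were then set apart. Regions within 1000 bp of an annotated start numbered 7 of 24 (29.2%, 95% Wilson interval 14.9 to 49.2%), against 52.4% of all listed regions. Of the 7, 3 were positive (Ets1, Etv6 and Gabpa) and 4 negative (Elf1, Elf2 with 2, and Elk3). Counted by gene, 3 of the 6 genes with a promoter region had positive ones alone and 3 had negative ones alone, whereas 74.7% of 6577 genes with a promoter region had positive ones alone and 23.9% negative ones alone. Of the 17 distal regions, 14 were positive (82.4%, against 86.9% of all listed distal regions), and the 3 negative ones were the upstream pair of Elf2 and the region past Ets1. The median effect of distal members was 0.78 in the authors' deposited table, against 0.75 over all listed distal regions. No test was made of these differences.

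**Figure D4:**
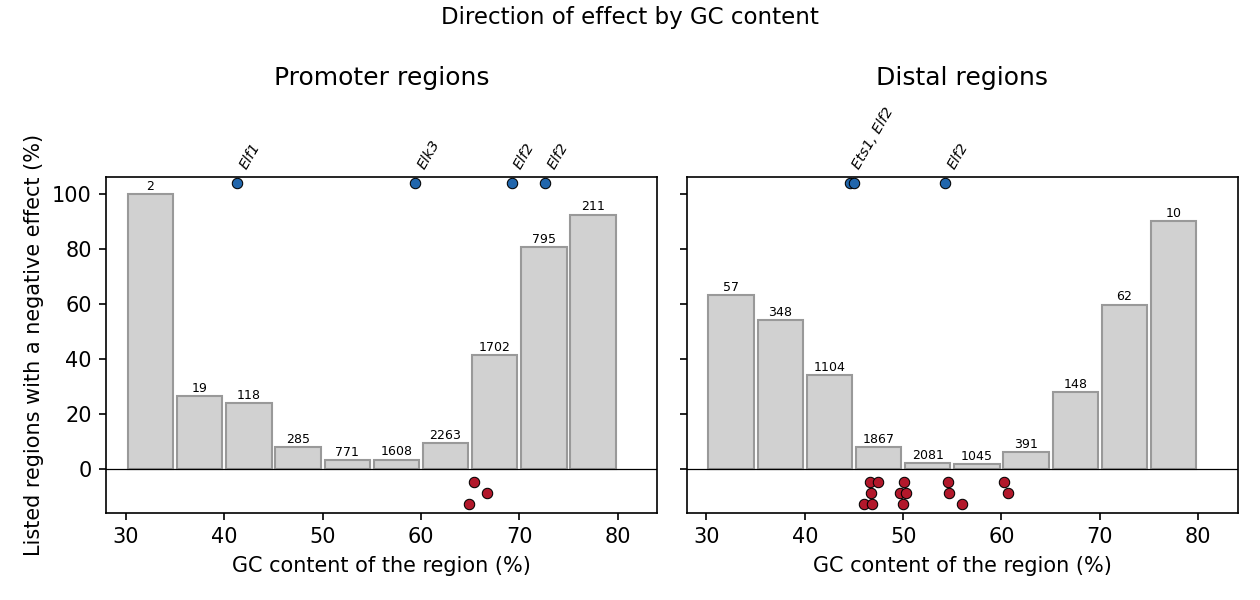
Grey bars give the share of listed regions with a negative effect (%) in categories of 5 percentage points of GC, at promoters on the left and in distal sequence on the right, with the number of regions over each bar. Points mark the GC content alone of ETS gene regions, blue and named above the bars for negative regions and red below them for positive ones, and the Elk3 promoter and the upstream Elf2 pair lie in categories with 2.16% to 7.98% negative regions, the narrower Elf2 region at the edge of a category with 34.0%.

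Consensus sequences were searched on both strands to describe what the regions share. The ETS consensus (CGGAAGT or AGGAAGT) was present in 8 of 24 regions, or 33.3% (95% Wilson interval 18.0 to 53.3%), against 25.8% of all listed regions. In the 300 bp around the centre, a window of equal length for all regions, it was present in 7, or 29.2%. The 95% Wilson interval of 14.9 to 49.2% includes the share of all listed regions, 15.3%. That window reaches past the ends of narrower regions and can hold matches outside them, so the 7 are not all among the 8. The 8 regions held 10 matches and belonged to Elf2, Elf4, Elk3 (2 regions), Ets2, Etv6, Fli1 and Gabpa. Of these regions 6 were positive and 2, the wide upstream region of Elf2 and the Elk3 promoter, were negative. Ets1, which encodes the best-known factor of the family in T cells, had no match in its 4 regions. Those of the promoters are given on the strand of the match with the consensus in capitals. They show that a match occurred in regions of either sign. For Elk3 they lie in a non-coding part of an exon. The Gabpa region has 75 bases outside exons of protein-coding genes (chr16:84835626-84835700), and both of its matches lie outside that stretch. For Etv6 786 bases are outside such exons, and whether the match is among them is not given here.
Gabpa, 64 bp before a start (chr16:84834847-84834875, minus strand): ggagccagggcCGGAAGTagaacggtggc
Gabpa, 90 bp after the first start (chr16:84835001-84835029, plus strand): caaacaggaggAGGAAGTggagggtaagt
Etv6, 382 bp after the start (chr6:134036068-134036096, minus strand): cgaaagggatcAGGAAGTtctcagttttt
Elk3, 3 bp after a start (chr10:93310952-93310980, plus strand): tgtgtgagagcAGGAAGTtggagcagtca
Elk3, 29 bp before that start (chr10:93310984-93311012, minus strand): taatgcagtaaAGGAAGTgagcaggctcg
The first Gabpa match was the single one with CGGAAGT and the single one that held CCGGAAGT, the form preferred by GABP and the ELK factors, which occurred in 5.88% of all listed regions.
Distal matches are shown for Fli1 (chr9:32562640-32562668, minus strand) and Elf4 (chrX:48424898-48424926, plus strand), in which the ETS match shares 5 bases with a match to the STAT consensus (TTCNNNGAA).
Fli1 upstream: aacacatttcgAGGAAGTtggctggccct
Elf4 intron: ccccatattccAGGAAGTctctgtctgct
No other matches to different consensus sequences overlapped in the 24 regions.

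Other consensus sequences of T cell factors were present in some members. The IRF consensus was found in 5 regions (20.8%), against 7.83% of all listed regions, and in the central 300 bp in 2 (8.33%), against 4.75%. Those 5 were the upstream region of Elf2, the intron of Elf4, the upstream region of Ets1, the intergenic region of Ets2 and the promoter of Etv6. STAT matches were found in 6 regions (25.0%, against 16.9%), AP-1 (TGANTCA) in 6 (25.0%, against 22.2%), NFAT (TGGAAA) in 10 (41.7%, against 32.6%) and RUNX (TGTGGT) in 7 (29.2%, against 30.8%). FOXO (GTAAACA) was found in 3 (12.5%, against 5.62%), the consensus of GATA factors, which reads AGATAA, in 4 (16.7%, against 12.9%) and the E-box CACGTG in 2 (8.33%, against 14.0%). YY1 (AAGATGGCG) was found in 1, the Gabpa promoter region (4.17%, against 3.61%). NFY (CCAAT) was found in 9 (37.5%, against 48.4%) and the GC box in 11 (45.8%, against 52.0%). The CRE (TGACGTCA), NRF1 and T-box (AGGTGTGA) consensus were in none of the 24, and in 3.61%, 7.79% and 2.21% of all listed regions. In the central 300 bp the order of members and all listed regions turned for AP-1 (8.33% against 15.4%), NFAT (16.7% against 18.7%), GATA (4.17% against 6.89%), RUNX (25.0% against 18.4%) and the E-box (8.33% against 7.07%). With 24 regions, 1 region is 4.17%, and no test was made of these shares. Matches are letters alone, not binding sites.

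The annotated promoters of the family were searched as well, with RefSeq windows (GRCm38.p6) of 250 bp before to 50 bp after a start. Of the 10 genes 8 matched, with 13 windows. The ETS consensus was in 5 of these windows, belonging to Elk4 (3 windows), Elf2 and Gabpa, against 15.1% of 32544 windows of all genes. Windows of 1 gene can overlap and are not independent. At Elk4 the matches of the first window began 191 and 67 bp before the start, although no region of Elk4 was listed. The Elf2 match lay in the window of an internal start and not in the negative promoter regions.

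Of 18 further genes, the remaining ETS genes and the GABP partners Gabpb1 and Gabpb2, 6 had a listed region and 12 had none, among them Spi1, Spib and Elk1. Of all protein-coding genes 43.0% had one. The 11 regions of the further genes were positive in 8 cases, against 80.7% of all listed regions, with a median effect of 0.63 in the authors' deposited table. Gabpb1, which encodes the partner of Gabpa, had a negative promoter region with -1.04 in the authors' deposited table (68.2% GC), opposite in sign to that of Gabpa. Erf, an ETS repressor, had 0.63 at the promoter and -0.76 in an intron in the authors' deposited table. Etv3 and Etv5 had 3 positive regions each, from 0.52 to 0.82 in the authors' deposited table. Erg, the closest relative of Fli1, had 0.71 and Etv1 had -0.87 in the authors' deposited table. For comparison with other T cell factor families, 10 of 11 regions of Runx1, Runx2, Runx3 and Cbfb, 7 of 10 of the STAT genes and 15 of 17 of the IRF genes were positive. The share over all listed regions, 80.7%, lay inside the Wilson interval of each of these families. Median effects were 0.78, 0.70 and 0.73 for these families in the authors' deposited table, so that the ETS median of 0.71 lay among them.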

How the data were processed

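STARR-seq output libraries of activated Th1 cells were made from 2 biological replicates. The 1 table of regions analysed, in mm10 coordinates, is described with the data as derived from both alignments. Its columns, as the authors deposited them, hold a score (the signed effect, of unstated scale and direction), a p-value, a q-value (adjusted p) and, as another measure, the width of the region. The deposited start counts from 1. Which aligner, region caller, test and normalization were used is not given in the sources used. The input library was not analysed here.

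Regions were given to genes with GENCODE M21 basic protein-coding starts within 100 kb of the centre, the integer midpoint. A promoter region was centred within 1000 bp of any basic transcript start. GC content and consensus matches were computed on GRCm38 with Python 3.11.15 and pysam 0.24.0, and copies (at least 95% identity over 240 bp) were counted with minimap2 2.31. Shares have Wilson intervals, which cover counting error over regions alone. The gene assignment, search and intervals were tested on simulated data. Named regions are all 24, with sequence for the highest, the lowest and promoter regions, leaving out exons, and ETS matches. Genes, lists and consensus sequences were chosen with earlier results of these data known. No test was made, since regions are not replicates.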

Additional observations from a re-analysis of the deposited data

How the results depend on the processing

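The 24 regions, their positive share and their median effect were recomputed under 8 alternatives. With an absolute effect of at least 1, 6 regions were left, 3 of them (50%) positive. This cut leaves no effect between -1 and 1. The median of -0.071 therefore falls between the signs, is the effect of no region and cannot be set against 0.71. Within 20 kb of a start 14 regions were left, 57.1% of them positive, with a median of 0.57. The other alternatives gave 16 to 24 regions, of which 70.8 to 81.2% were positive, with medians of 0.71 to 0.83. Among them, the nearest start of any transcript in place of a protein-coding one gave 16 regions, 75.0% of them positive. The positive share of all listed regions under each alternative is not given here. Merging regions under 500 bp apart, which joins each Elf2 pair, gave 22 regions, 77.3% positive. A promoter window of 500 bp gave a promoter share of 20.8%, against 47.5% of all listed regions, and one of 2000 bp 33.3%, against 56.6%. With CCGGAAGT alone as ETS consensus the share was 4.17%, against 5.88% of all listed regions. For Ets1, the effect of largest size was 0.83 in place of -0.88 within 50 kb, within 20 kb and with an adjusted p under 0.001, because the region past its end was left out. No listed region lay between 100 and 250 kb, so that a distance of 250 kb gave the same 24. No paired analysis was possible because there was 1 group and the table combines both libraries, and no replicate could be left out for the same reason. The depth is unknown, so that for a single effect the p-value of the authors is the only measure of precision.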

Other observations

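Beyond the 100 kb limit, the protein-coding start nearest to 3 further listed regions on chromosome 9 was that of Ets1, and they are given as values with no comparison. In the authors' deposited table they had effects of -0.66 at chr9:33000101-33000650, 0.66 at chr9:33060401-33061275 and -1.02 at chr9:33095526-33095950. They lay 304, 364 and 399 kb after the start, the second in an intron of the non-coding gene Gm27166 and the others in intergenic sequence. Their GC contents were 37.8%, 43.7% and 40.9%. The most distant region inside the limit was the negative one 63.5 kb after the Ets1 start. No other member gene was the nearest protein-coding start of a region beyond 100 kb.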
